A study of Equus caballus with 10 samples.

Results

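The genes described here make cholesterol, sense it, take it up, move it within the cell and export it. They were chosen by name: a row of the deposited expression table was a member when its gene name was one of 33 listed names, whatever its values. The names themselves were listed with earlier results of these data known. This rule found 31 genes among the 29196 rows, and all 31 passed the filter on low values. CYP51A1 and CYP7B1 were listed names absent from the name column, so they are not counted as members. Their rows were located through RefSeq gene identifiers, and their values are given separately.

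The cells were primary equine tenocytes, the matrix-producing cells of tendon, from 5 lines that each came from a different adult horse. All 10 cultures were grown as 3D collagen gels for 14 days in medium with 10% serum, and all received PF-06650833, an inhibitor of IRAK-4, a kinase that relays the signal of the IL-1 receptor, at 100 nM every day. In 1 group (PF-06650833 alone, n = 5) nothing else was added. The other group (IL-1β plus PF-06650833, n = 5) also received the inflammatory cytokine IL-1β at 17 ng/ml, renewed at intervals of 3 to 4 days. Each line gave 1 library to each group, and the lines are numbered 1 to 5 here. Both groups carried the inhibitor, so the comparison measures the response to IL-1β in its presence. Untreated cells and cells given IL-1β without the inhibitor were not analysed here.

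As background, cholesterol is built from acetyl-CoA. The mevalonate arm makes 5-carbon isoprene units and joins them, and squalene is then closed into a ring and trimmed through a series of sterols. When sterols run low in the endoplasmic reticulum, SCAP escorts the transcription factor SREBP2 to the Golgi for activation, and genes of synthesis are induced together. When sterols are plentiful, INSIG proteins hold SCAP back. Oxysterols, which are oxidised forms of cholesterol, activate the liver X receptors (LXRs), and these induce the exporters ABCA1 and ABCG1 and the ubiquitin ligase MYLIP, which reduces lipoprotein uptake.

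Poly(A) RNA was sequenced, and each library held an estimated 26409500 to 35749700 reads assigned to genes. Values are on a variance-stabilised log2 scale, where a gene with no reads is listed at 3.43, so a difference of 1 is about a doubling in a well-read gene and less in one near that floor. The labelled cell type was checked against tenocyte markers. COL1A1, a gene of type I collagen, was abundant at 18.07 to 19.51 without IL-1β and 16.64 to 18.68 with it, lower in 5 of 5 lines (difference -1.38, limma adjusted p = 0.0682, and 0.0147 with the line as a block). The tendon transcription factors SCX and MKX were read in every library but fell with IL-1β (differences -3.24 and -2.85, adjusted p = 0.000611 and 0.00554). The matrix genes COMP and TNC also fell (-3.63 and -2.04), and TNMD, a marker of mature tenocytes, was at 0 reads in all 10. Not every marker fell. DCN, a matrix proteoglycan, was higher in 5 of 5 lines (difference 1.01, limma adjusted p = 0.268, and 0.0529 with the line as a block). THBS4 and FMOD, lower in 4 of 5 lines, did not pass (-1.22 and -1.31, adjusted p = 0.437 and 0.277). COL1A2 was lower in 5 of 5 lines (-1.28, limma adjusted p = 0.0614, and 0.0169 with the line as a block). Leukocyte, endothelial and adipocyte marker levels are given beside the results they bear on. These are bulk samples, in which fewer cells of a type and less RNA per cell cannot be told apart.

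Across the members, the clearest difference was in cholesterol export. ABCA1 was 2.84 log2 units higher with IL-1β, and it was the only member differentially expressed by the study's thresholds, an adjusted p below 0.05 and a log2 fold change of at least 1 in size. That is 1 of 31 members (3.23%), where the background over the 17992 genes tested was 6.68% (3.11% higher). At the same adjusted p with no minimum fold change, 6 members passed (19.4%, background 15.5%): ACAT2, FDPS, EBP, ABCA1 and STARD4 rose (background for higher genes 7.57%) and PMVK fell (background for lower genes 7.89%). The 5 that rose were 16.1% of the members, above the background for higher genes, and the share in either direction was close to its background. The median difference was 0.20, against -0.01 over all genes tested, with 20 members above 0 and 11 below. It was 0.0545 without line 3 and 0.305 without line 4, and 0.112 or 0.131 without the line 3 library of PF-06650833 alone or of IL-1β. The count of 6 also rested on the lines included: without lines 1, 2, 3, 4 and 5 it became 3, 2, 2, 10 and 1 members, and without single libraries it ranged from 2 (line 5 with PF-06650833 alone, or line 1 with IL-1β) to 9 (line 4 with IL-1β).

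Since each line was cultured in both groups, the line could be entered in the model as a block. Under this block 2 members, ABCA1 and ABCG1, met both thresholds (background 8.26%). With no minimum fold change 8 members passed (25.8%, background 22.2%), of which 6 were higher (19.4%, background 10.9%) and 2 lower (background 11.3%). The 2 members added by the block were ABCG1 and MYLIP. When each line in turn was left out under the block (5 fits), ABCA1, ABCG1, PMVK and MYLIP passed the adjusted p in all 5. ACAT2 passed in 3, and FDPS, EBP and STARD4 in 1 each. The limma adjusted p-values of those 4 genes reached 0.0626, 0.0944, 0.148 and 0.142.

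The groups were also compared library by library. The 5 libraries of a group did not overlap the 5 of the other for 3 members (9.68%, background 12.7%). ACAT2 and ABCA1 were higher (background 6.29%) and PMVK was lower (background 6.41%). The difference had the same direction in 5 of 5 lines for 9 members (29.0%, background 32.7%), of which 6 were higher and 3 lower. The plot of differences by gene shows each member with its interval.

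**Figure D1:**
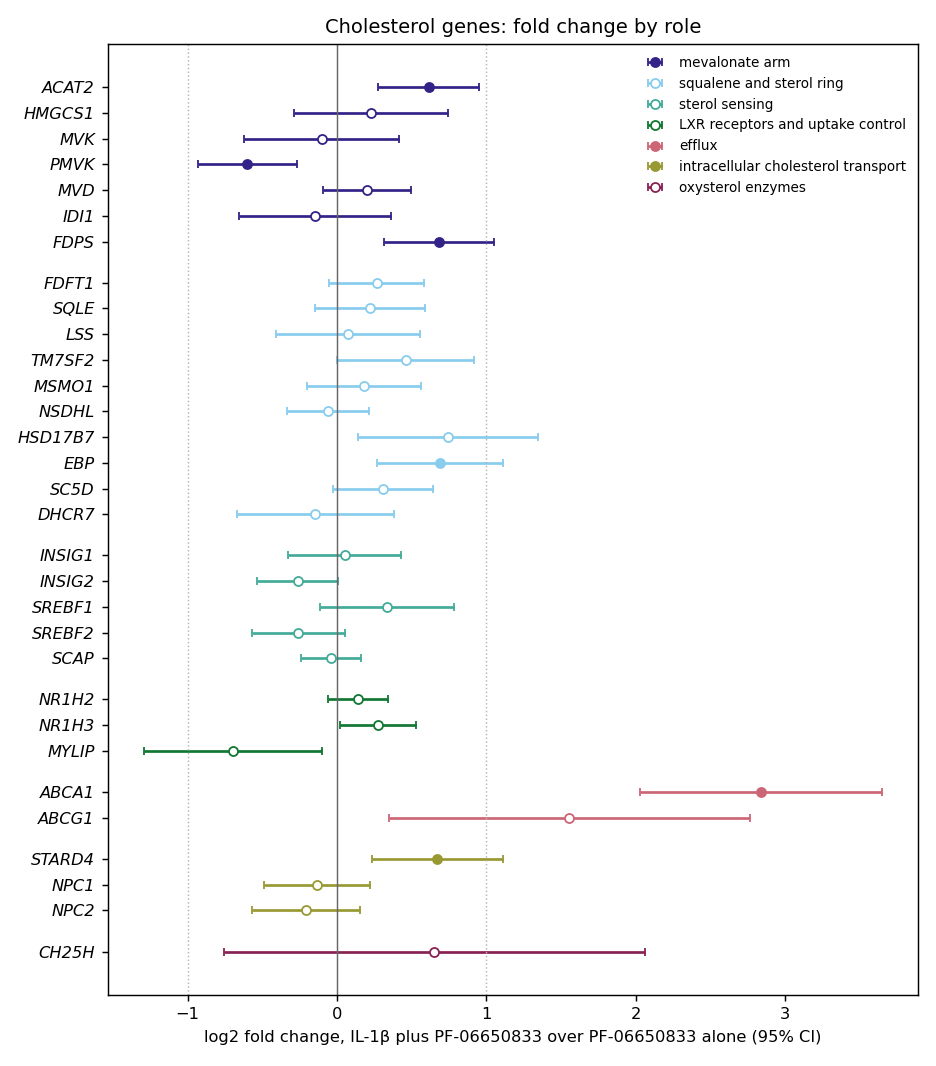
Difference in log2 value between IL-1β plus PF-06650833 and PF-06650833 alone (x axis) for the 31 members grouped by role (y axis), with points for the limma estimate, bars for the 95% interval and filled points where the adjusted p was below 0.05. ABCA1 stands apart at 2.84, the 17 synthesis enzymes lie within 1 unit of 0, and PMVK at -0.60 lies opposite to ACAT2, FDPS and EBP.

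Export carried the largest differences. ABCA1, the transporter that loads cholesterol and phospholipid onto lipid-poor apolipoprotein A-I, measured 10.62, 11.01, 10.55, 8.89 and 9.52 in lines 1 to 5 with PF-06650833 alone. With IL-1β the same lines measured 13.23, 13.25, 12.73, 12.40 and 13.18. The groups were well separated, with the lowest IL-1β library above the highest library without it, and the spread between lines was narrower with IL-1β (10.12 ± 0.879 against 12.96 ± 0.380, mean ± SD, n = 5 each). The difference was 2.84 (SE 0.37, 95% interval 2.03 to 3.65, limma adjusted p = 0.000791). On normalised counts recovered from the deposited values, ABCA1 was 4.57- to 13.0-fold higher within a line, with a geometric mean of 7.29-fold. ABCA1 remained differentially expressed whichever library or line was omitted (15 fits), with differences of 2.53 to 3.06.

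ABCG1, which passes cholesterol on to lipoprotein particles already carrying lipid, measured 9.59, 10.63, 9.79, 8.53 and 9.27 in lines 1 to 5 with PF-06650833 alone. The corresponding values with IL-1β were 11.39, 12.12, 10.65, 9.23 and 12.19. ABCG1 was higher with IL-1β in 5 of 5 lines, but lines differed so much in level that the groups overlapped: line 4 with IL-1β lay below lines 1, 2, 3 and 5 without it. The difference of 1.56 (SE 0.55) missed the threshold when the line was not modelled (limma adjusted p = 0.0815) and passed with the line as a block (SE 0.30, 95% interval 0.87 to 2.24, adjusted p = 0.00918). Without the IL-1β library of line 4 it was 2.03 (adjusted p = 0.00870), and without line 4 altogether 1.77 (adjusted p = 0.0157), both with no block. ABCG1 passed in only those 2 of the 15 leave-out fits with no block, and in the others the adjusted p reached 0.282. Within lines, ABCG1 was 1.66- to 7.83-fold higher, and the geometric mean was 3.00-fold.

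Both exporters are also strongly used by macrophages, so leukocyte markers were read beside them. Of 10 macrophage and leukocyte markers, C1QA and C1QB were at 0 reads in all 10 libraries, and PTPRC, CSF1R, CD163 and MRC1 were at 0 in at least 6. CD14, a lipopolysaccharide co-receptor of monocytes that other cells can also carry, measured 10.72, 8.37, 3.43, 3.43 and 3.43 in lines 1 to 5 without IL-1β and 10.73, 9.50, 3.43, 8.75 and 10.27 with it (difference 2.66, limma adjusted p = 0.340, and 0.106 with the line as a block). It went from 0 reads to clear expression in lines 4 and 5, where the ABCA1 difference was largest (3.50 and 3.66), and was at 0 reads in both libraries of line 3, where ABCA1 was higher by 2.18. Compared without pairing the lines, the list's summed normalised counts had overlapping ranges, 63.4 to 1767 without IL-1β and 171 to 1949 with it. Within lines, CD14 was higher with IL-1β in 4 of 5. CD68, a lysosomal glycoprotein that other cells also make, was higher with IL-1β in 5 of 5 lines, with a mean difference of 1.70 (6.64 against 8.34, limma adjusted p = 0.00795). In lines 1 to 5 it measured 6.83, 6.95, 6.44, 6.77 and 6.19 without IL-1β and 7.94, 9.57, 7.58, 7.96 and 8.63 with it. Its largest difference (2.61) was in line 2, not in lines 4 or 5. ITGAM and MARCO, both low, did not pass (0.37 and -0.20, adjusted p = 0.568 and 0.702). The 6 endothelial markers summed to 2.67 to 19.0 and 7.00 to 38.7 normalised counts. The part of these markers in the transporter result was not tested.

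**Figure D2:**
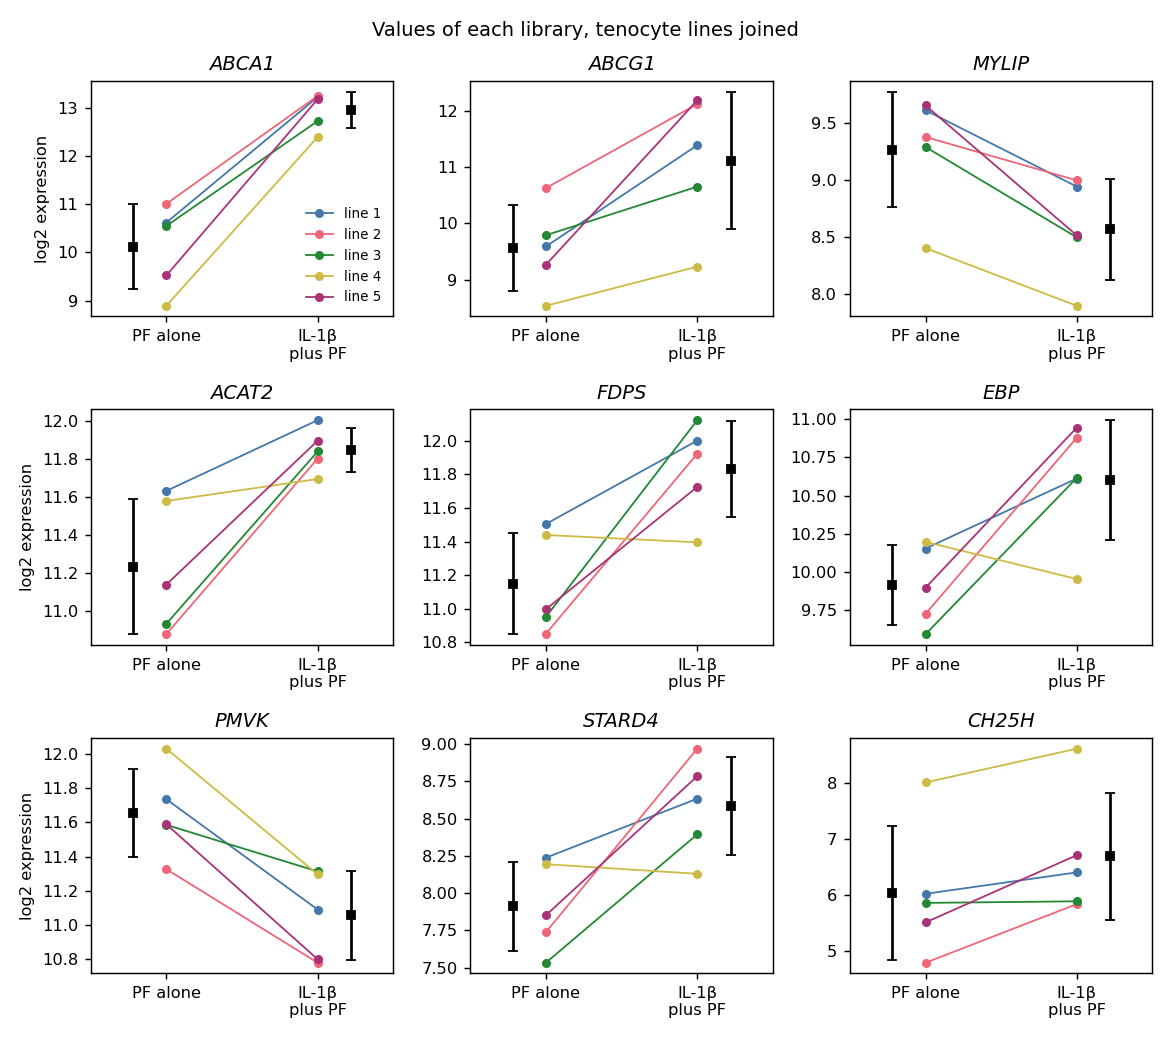
Log2 value of 9 members in each library (y axis) by group (x axis), with coloured lines joining both libraries of a tenocyte line and black squares for the group mean ± SD (n = 5, PF is PF-06650833). ABCA1 and ABCG1 are higher and MYLIP is lower with IL-1β in every line, while ACAT2, FDPS, EBP and STARD4 are higher with IL-1β in at least 4 of 5 lines.

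The nuclear receptors upstream of the exporters did not pass. NR1H3, which encodes LXRα, ranged from 9.30 to 9.59 with PF-06650833 alone and from 9.57 to 10.04 with IL-1β, and was higher in 5 of 5 lines. The difference of 0.27 (95% interval 0.02 to 0.53) did not pass (limma adjusted p = 0.138, and 0.0816 with the line as a block). NR1H2, encoding LXRβ, ranged from 11.56 to 11.86 and from 11.70 to 12.05, a difference of 0.14 (interval -0.06 to 0.34, adjusted p = 0.337) that was also positive in 5 of 5 lines.

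MYLIP, also called IDOL, marks lipoprotein receptors for degradation and is a known LXR target, like both exporters. It differed in the opposite direction. In lines 1 to 5 it measured 9.61, 9.37, 9.29, 8.40 and 9.65 with PF-06650833 alone and 8.94, 8.99, 8.50, 7.90 and 8.51 with IL-1β. Every line was lower with IL-1β, although line 4 without IL-1β was already below all IL-1β libraries but that of its own line. The mean difference was -0.70 (SE 0.27, interval -1.29 to -0.10), with a limma adjusted p of 0.108 without the line and 0.00953 with the line as a block (SE 0.13, interval -1.01 to -0.39). With the block, MYLIP passed whichever line was left out, and the highest of those 5 adjusted p-values was 0.0428.

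The mevalonate arm had 7 members, of which 2 rose, 1 fell and 4 did not pass (42.9% passing, background 15.5%). ACAT2, the cytosolic thiolase that joins acetyl-CoA units at the entry to the pathway, measured 11.63, 10.88, 10.93, 11.58 and 11.14 in lines 1 to 5 with PF-06650833 alone. With IL-1β it measured 12.01, 11.80, 11.84, 11.70 and 11.90. No library overlapped, and the IL-1β libraries lay close together at 11.85 ± 0.115 against 11.23 ± 0.355 (SD, n = 5). ACAT2 rose by 0.62 (SE 0.15, interval 0.28 to 0.95, limma adjusted p = 0.0208).

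FDPS, which makes farnesyl diphosphate at the branch between sterols and other isoprenoids, measured 11.50, 10.85, 10.95, 11.44 and 11.00 with PF-06650833 alone. Its values with IL-1β were 12.00, 11.92, 12.12, 11.40 and 11.72. Line 4 alone showed no gain (-0.04), and its IL-1β library lay within the range of the other group. FDPS rose by 0.68 (SE 0.17, interval 0.31 to 1.05, limma adjusted p = 0.0193).

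PMVK, phosphomevalonate kinase, went the other way. It measured 11.74, 11.33, 11.59, 12.03 and 11.59 with PF-06650833 alone and 11.09, 10.78, 11.31, 11.30 and 10.80 with IL-1β. It was lower in each line, by between 0.27 and 0.79, and every IL-1β library lay below every library without it, though only narrowly (11.31 against 11.33). PMVK fell by 0.60 (SE 0.15, limma adjusted p = 0.0218, and 0.00478 with the line as a block). MVK and MVD, the kinase and the decarboxylase on either side of PMVK in the pathway, differed by -0.10 (interval -0.62 to 0.42, adjusted p = 0.821) and 0.20 (interval -0.09 to 0.49, adjusted p = 0.356).

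The other mevalonate genes did not pass. HMGCS1, the cytosolic HMG-CoA synthase, ranged from 11.29 to 12.47 with PF-06650833 alone and from 11.62 to 12.26 with IL-1β (difference 0.22, interval -0.29 to 0.74, limma adjusted p = 0.577). IDI1, the isomerase that interconverts the isoprene units, ranged from 11.02 to 12.31 and from 11.37 to 11.70 (difference -0.15, interval -0.66 to 0.36, adjusted p = 0.725).

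Of the 10 members that close and trim the sterol ring, 1 rose and 9 did not pass (10% passing, background 15.5%, or 7.57% for higher genes). EBP, the sterol isomerase that shifts a double bond in the ring, measured 10.15, 9.72, 9.59, 10.20 and 9.90 in lines 1 to 5 with PF-06650833 alone. With IL-1β it measured 10.61, 10.88, 10.62, 9.95 and 10.95. EBP was higher in lines 1, 2, 3 and 5 and lower in line 4, and rose by 0.69 (SE 0.19, interval 0.27 to 1.11, limma adjusted p = 0.0331).

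HSD17B7, a ketosteroid reductase of the same stretch, had a like pattern but was read less deeply. Its values were 7.75, 7.67, 7.02, 8.14 and 7.60 with PF-06650833 alone and 8.48, 8.64, 8.46, 7.48 and 8.83 with IL-1β. Lines 1, 2, 3 and 5 were higher with IL-1β and line 4 was lower by 0.66, and the difference of 0.74 (interval 0.14 to 1.34) did not pass (limma adjusted p = 0.0946). Without line 4 it was 1.09 with an adjusted p of 0.00873. HSD17B7 passed the adjusted p in 2 of the 15 leave-out fits, and in the others it reached 0.290.

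The remaining 8 enzymes of this stretch differed by -0.15 to 0.46, and none passed. TM7SF2, a sterol reductase, differed by 0.46 (interval 0.00 to 0.92, limma adjusted p = 0.167) and SC5D, a sterol desaturase, by 0.31 (interval -0.03 to 0.64, adjusted p = 0.208). FDFT1, which makes squalene, and SQLE, which oxidises it, differed by 0.27 (interval -0.05 to 0.58, adjusted p = 0.248) and 0.22 (interval -0.15 to 0.59, adjusted p = 0.429). LSS, which folds the oxidised squalene into lanosterol, differed by 0.07 (interval -0.41 to 0.55, adjusted p = 0.865).

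Among the demethylation steps, MSMO1, the sterol methyl oxidase, differed by 0.18 (interval -0.20 to 0.56, limma adjusted p = 0.540), and NSDHL, its partner dehydrogenase, by -0.06 (interval -0.34 to 0.22, adjusted p = 0.802). DHCR7, which makes cholesterol from its 7-dehydro precursor, differed by -0.15 (interval -0.67 to 0.38, adjusted p = 0.741). The CYP51A1 row, the lanosterol demethylase that the name rule left out, differed by 0.14 (adjusted p = 0.572).

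Together the 17 synthesis enzymes that were members had a median difference of 0.22, and 3 rose, 1 fell and 13 did not pass (23.5% passing, background 15.5%). Without lines 1 to 5 in turn the median was 0.354, 0.147, 0.0545, 0.345 and 0.230. It was 0.137 and 0.112 without line 2 or line 3 of the PF-06650833 alone group, and 0.135 without line 3 of the IL-1β group. Several of the calls depended on which libraries were included. ACAT2, FDPS and PMVK each passed in 10 of those 15 leave-out fits, with adjusted p-values reaching 0.0999, 0.104 and 0.0966. The calls of ACAT2 and FDPS were lost without line 2, 3 or 5, without line 5 in the PF-06650833 alone group and without line 1 in the IL-1β group. That of PMVK was lost without line 1 or 5, without line 1 in the PF-06650833 alone group and without line 2 or 5 in the IL-1β group. EBP passed in 4 of the 15, those without line 4, without either of its libraries or without line 1 in the PF-06650833 alone group, and reached 0.161.

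Behind these small averages, the differences shared a direction within most lines and opposed each other between lines. In lines 2 and 3, 16 of 17 enzymes were higher with IL-1β, with a median difference of 0.56 in line 2 and 0.85 in line 3, and PMVK was the exception in both. In line 4, 16 of 17 were lower, with a median of -0.27, and ACAT2 was the exception at 0.12. Line 5 had 12 higher and 5 lower (median 0.20) and line 1 had 7 higher and 10 lower (median -0.11). Over all genes tested, 48.2% to 49.8% were higher with IL-1β in each line, with medians between -0.01 and 0.

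**Figure D3:**
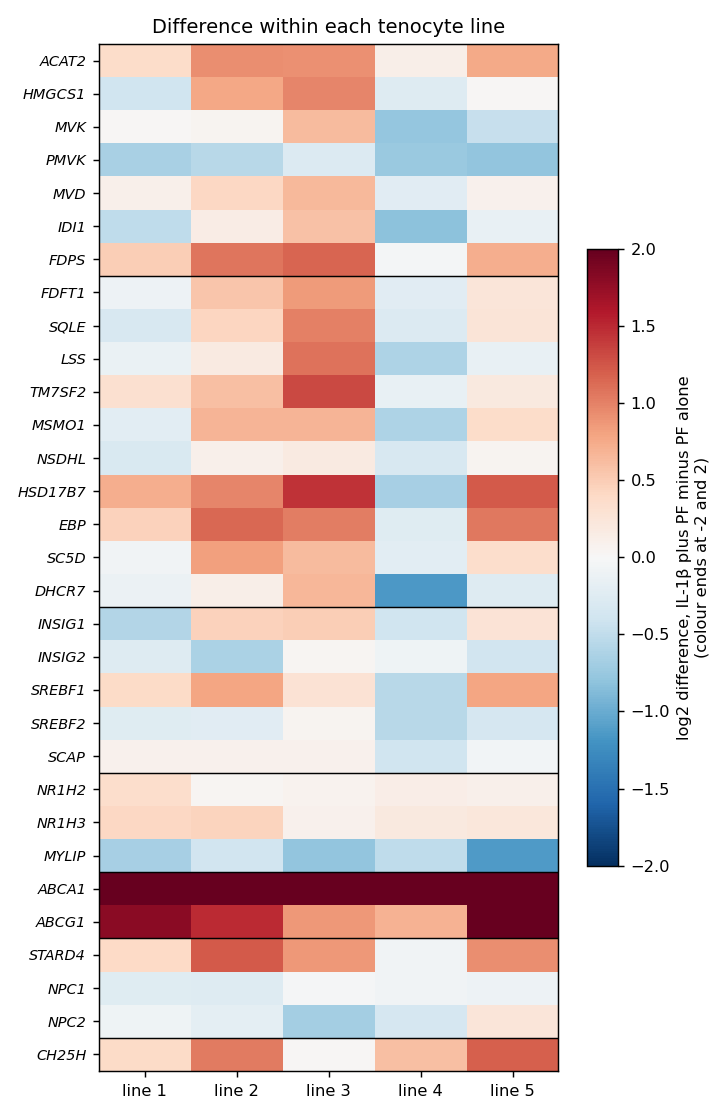
Difference between IL-1β plus PF-06650833 and PF-06650833 alone within each tenocyte line (columns) for each member (rows), as colour in log2 units, with colours clipped beyond 2 units. Lines 2 and 3 are warm for 16 of 17 synthesis enzymes and line 4 is cool for 16 of 17, whereas ABCA1, ABCG1 and MYLIP keep 1 direction in all 5 lines.

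The starting level of a line went with this order. With PF-06650833 alone, line 4 held the highest value for 14 of the 17 enzymes (82.4%, against 21.5% of all genes tested) and line 1 for the other 3, whereas line 3 was lowest for 9 and line 2 for 8. With IL-1β, line 3 was highest for 10 of 17 and line 4 lowest for 7. The mean log2 value over the enzymes was 10.92, 10.52, 10.41, 11.19 and 10.65 in lines 1 to 5 with PF-06650833 alone, and 10.90, 11.01, 11.20, 10.77 and 10.86 with IL-1β. Thus lines 2 and 3 went from the bottom of the range to its top, and line 4 from the top to the bottom. A difference measured from a starting level falls, by construction, as that level rises, so the order of the lines is a description.

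The spread between lines was smaller with IL-1β for 12 of 17 enzymes (70.6%), where this held for 42.8% of all genes tested. The median SD over the enzymes was 0.346 with PF-06650833 alone and 0.275 with IL-1β, while over all genes it was 0.266 and 0.304. With 1 library per line and group, a difference between lines could not be separated from a difference between single cultures, and none was tested.

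**Figure D4:**
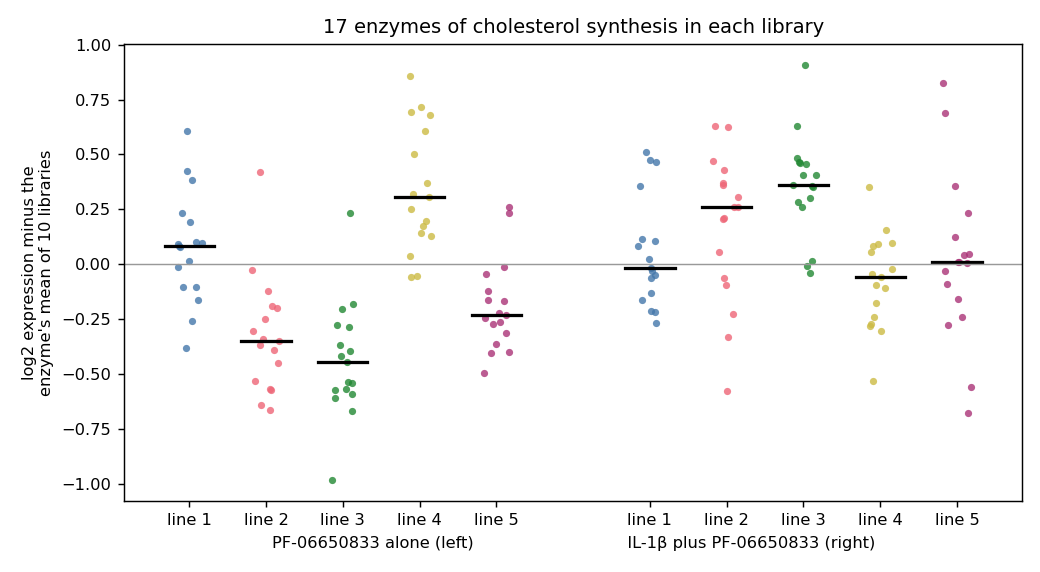
Log2 value of each of the 17 synthesis enzymes in each of the 10 libraries (x axis), shown as its deviation from that enzyme's mean over libraries (y axis), with the median marked. Without IL-1β the medians run from -0.45 in line 3 to 0.31 in line 4, and with IL-1β they run from -0.06 in line 4 to 0.36 in line 3.

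Line 4 also stood at an extreme for other members. With PF-06650833 alone it had the lowest ABCA1 (8.89), ABCG1 (8.53) and MYLIP (8.40) of the 5 lines and the highest CH25H (8.01). Its ABCA1 difference (3.50) was among the largest, behind only line 5 (3.66), whereas its ABCG1 difference (0.70) was the smallest.

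The 5 genes of the sterol sensor gave no call with limma at an adjusted p of 0.05 over all 10 libraries, with or without the block, and 0 of 5 had an unadjusted p below 0.05 without the block (1 of 5 with it). SREBF2, encoding SREBP2, ranged from 12.77 to 13.16 with PF-06650833 alone and from 12.54 to 13.19 with IL-1β (difference -0.26, interval -0.57 to 0.05, limma adjusted p = 0.249). SCAP, its escort, was the steadiest gene of the group at 12.19 to 12.54 and 12.14 to 12.39, a difference of -0.04 (interval -0.24 to 0.16, adjusted p = 0.813). SREBF1, whose product SREBP1 acts mainly on fatty acid genes and which LXR itself induces, differed by 0.34 (interval -0.11 to 0.78, adjusted p = 0.308) and was higher in 4 of 5 lines. Without the IL-1β library of line 4 the SREBF1 difference was 0.527 (adjusted p = 0.0233), and without line 4 it was 0.559 (adjusted p = 0.0341). Those were the only 2 of the 15 leave-out fits in which SREBF1 passed. In the others its difference was as low as 0.209 and its adjusted p reached 0.644.

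Both INSIG genes, the retention factors, were without a call. INSIG1, an SREBP target whose level is often read with the synthesis enzymes, ranged from 11.35 to 12.10 in the first group and from 11.31 to 12.06 with IL-1β, a difference of 0.05 (interval -0.33 to 0.43, limma adjusted p = 0.879). INSIG2 differed by -0.26 (interval -0.53 to 0.00, adjusted p = 0.175) and was lower in 4 of 5 lines.

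Of the 3 genes that move cholesterol between membranes inside the cell, STARD4 rose and both Niemann-Pick genes did not pass. STARD4, a soluble sterol carrier, measured 8.24, 7.74, 7.53, 8.19 and 7.85 in lines 1 to 5 with PF-06650833 alone and 8.63, 8.97, 8.39, 8.13 and 8.78 with IL-1β. As for EBP and FDPS, line 4 was the exception (-0.06) and the other lines were higher, here by 0.40 to 1.23. STARD4 rose by 0.67 (SE 0.20, interval 0.23 to 1.11, limma adjusted p = 0.0436). It passed in 5 of the 15 leave-out fits, with an adjusted p of up to 0.197 in the rest, and those 5 included each fit that dropped a line 4 library.

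NPC1 and NPC2 act in sequence to release lipoprotein cholesterol from lysosomes. NPC1 ranged from 10.65 to 11.26 with PF-06650833 alone and from 10.53 to 11.24 with IL-1β, a difference of -0.13 (interval -0.49 to 0.22, limma adjusted p = 0.636). Though NPC1 was lower in 5 of 5 lines, the steps were small next to the spread between lines. NPC2 ranged from 13.23 to 13.55 and from 12.55 to 13.53 (difference -0.21, interval -0.57 to 0.15, adjusted p = 0.442).

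CH25H, which makes the signalling oxysterol 25-hydroxycholesterol, was the member with the fewest reads, an estimated 8 to 219 per library without IL-1β and 33 to 261 with it. It measured 6.03, 4.80, 5.87, 8.01 and 5.52 without IL-1β and 6.41, 5.84, 5.89, 8.62 and 6.72 with it. Each line was higher with IL-1β, by 0.03 to 1.20, but lines differed by far more than the treatment did. The difference of 0.65 (interval -0.76 to 2.06) did not pass (limma adjusted p = 0.550, and 0.0640 with the line as a block), and an interval of this width leaves both no change and a large one possible. The CYP7B1 row, an oxysterol hydroxylase outside the name rule, differed by 1.12 (adjusted p = 0.248, and 0.0600 with the block), and its line differences ran from 0.10 in line 5 to 2.75 in line 4.

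Other genes of sterol and lipid handling were read from 8 further lists holding 100 genes, of which 90 could be tested. The lists were chosen with earlier results of these data known, so their shares beside the background are a description. In these lists 10 genes were differentially expressed (11.1%, background 6.68%), 6 higher and 4 lower. At an adjusted p below 0.05 alone 17 passed (18.9%, background 15.5%) and 73 did not. The median over the lists was -0.03.

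Fatty acid genes held 4 of the 6 higher genes, from 14 tested (28.6%, background 3.11%). FADS2 and FADS1, the desaturases of polyunsaturated fatty acids, rose by 1.71 (12.66 to 12.98 against 13.93 to 14.92, limma adjusted p = 0.000287) and 1.07 (13.09 to 13.25 against 13.93 to 14.58, adjusted p = 0.000502). SCD, the desaturase that makes oleate, rose by 1.30 (adjusted p = 0.00231). The fourth was GPAM, the first acyltransferase of glycerolipid synthesis, named here after its value was seen (1.86, adjusted p = 0.00236). ME1, also named after its value was seen, fell by 0.87 (adjusted p = 0.0101). FASN, the fatty acid synthase, differed by 0.43 (adjusted p = 0.0756, and 0.0195 with the line as a block).

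Adipocyte markers were read beside these lipid genes. The 6 markers summed to between 20.3 and 250.8 normalised counts without IL-1β and between 364 and 3556 with it, ranges that did not overlap. Most of these sums came from ADIPOQ and LPL. ADIPOQ was higher by 3.11 (limma adjusted p = 0.00543), LEP was at 0 reads in all 10 libraries, and FABP4 and CIDEC were at 0 in at least 6. PLIN1 stayed near the floor and did not pass (3.43 to 4.65 against 4.10 to 4.69, adjusted p = 0.384). LPL, lipoprotein lipase, was 2.19 higher, in 5 of 5 lines (3.43 to 6.67 against 4.15 to 10.81, adjusted p = 0.192, and 0.0137 with the line as a block). The part of these markers in the lipid results was not tested.

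Of 7 lipoprotein and scavenger receptors tested, 3 passed the adjusted p (42.9%, background 15.5%). SORT1, a sorting receptor, fell by 1.86 (10.19 to 11.05 against 8.59 to 9.46, limma adjusted p = 0.000386) and VLDLR, the very low density lipoprotein receptor, fell by 1.21 (12.21 to 13.64 against 11.37 to 12.20, adjusted p = 0.00671). The third, SCARB1, the HDL receptor, rose by 0.60 (adjusted p = 0.0156) and was named after its value was seen. CD36 and OLR1 were at 0 reads in all 10 libraries.

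Sterol transfer and ester turnover genes had 5 of 21 pass the adjusted p (23.8%, background 15.5%). Only OSBPL10, an oxysterol-binding family member, met both thresholds (-1.53, 9.51 to 10.42 against 8.01 to 8.91, limma adjusted p = 0.00169). Of 7 tested LXR partners and other LXR targets, PLTP, the phospholipid transfer protein, rose by 1.10 (11.41 to 12.33 against 12.60 to 13.62, adjusted p = 0.00572). The other 6 did not pass without the block (14.3% passing, background 15.5%). CYP7A1, the first enzyme of bile acid synthesis in liver, was matched by gene identifier and fell by 1.95 (7.56 to 9.19 against 5.76 to 6.61, adjusted p = 0.00259). It was the 1 of 9 oxysterol and bile acid genes to pass (11.1%, same background).

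FAXDC2, a putative sterol oxidase, was the 1 of 9 other enzymes and electron donors of sterol synthesis to pass, rising by 1.97 (SE 0.51, 5.43 to 7.73 against 7.41 to 9.98, limma adjusted p = 0.0246). That is 11.1%, where the background was 15.5%. Of 9 genes of SREBP processing 1 passed and was lower (also 11.1%). None of the 14 isoprenoid branch genes passed in limma without the block, where 3 had an unadjusted p below 0.05, and 1 passed with it.

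With the line as a block, 27 of the 90 passed the adjusted p (30.0%, background 22.2%). The added genes, named after their values were seen, included 6 that were higher: FASN, LPIN1 (0.34, adjusted p = 0.0181 with the block), GRAMD1B (1.08, 0.00376), LPCAT3 (0.49, 0.0392), SMPDL3A (0.82, 0.0309) and CYB5B (0.28, 0.0367). FNTA (-0.27, 0.0410), LRP1 (-0.91, 0.0176) and ACOX2 (-0.62, 0.0244) were lower. GRAMD1B and ACOX2 lay near the floor, with an estimated 0 to 32 and 0 to 24 reads per library, so their differences are uncertain. The passing counts thereby became 7 for fatty acid genes (50%), 4 for receptors (57.1%) and 6 for sterol transfer (28.6%). They became 4 of 7 for LXR partners and other LXR targets (57.1%), 2 for oxysterol genes (22.2%) and 2 for the other enzymes (22.2%).

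**Figure D5:**
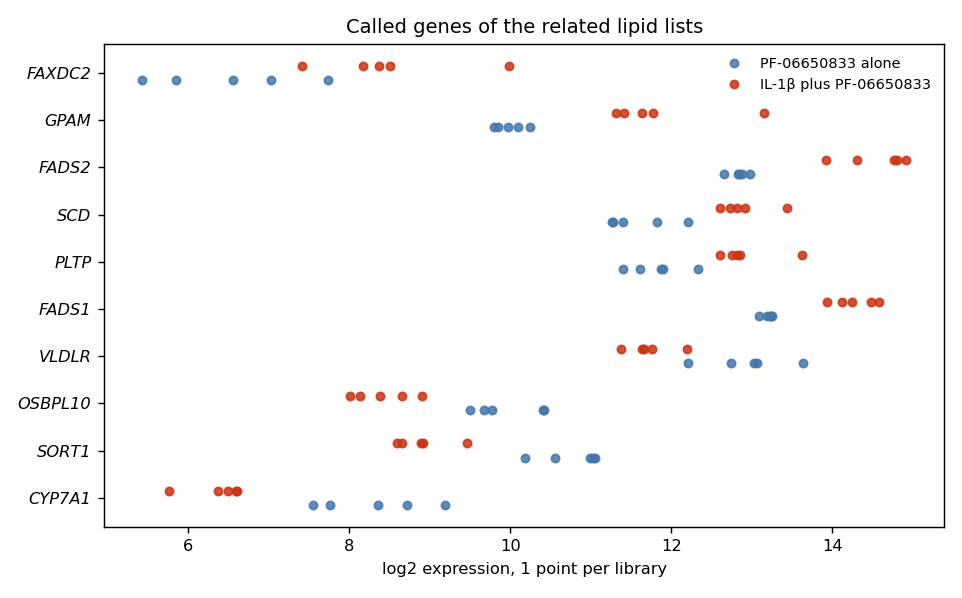
Log2 value (x axis) in each library for the related genes that were differentially expressed (rows), by group. FADS2, FADS1, SCD, GPAM, PLTP and FAXDC2 lie higher with IL-1β, and SORT1, VLDLR, OSBPL10 and CYP7A1 lie lower.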

How the data were processed

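Per the labels and the study's methods, RNA from equine tenocytes in 3D collagen gels was sequenced (5 libraries per group). The authors checked reads with FastQC 0.11.9, quantified transcripts of EquCab3.0 with Salmon 1.8 and used DESeq2 1.36. The deposited values are log2 values, recognised from their floor of 3.43 and spacing as a variance-stabilising transformation of normalised counts. DESeq2 and edgeR were not run here, since the raw counts were not analysed here. Normalised counts and estimated reads were recovered by inverting the transformation, so depths are estimates. The line numbers follow the line names in the labels.

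Genes above the floor in at least 5 of 10 libraries (17992) were compared with limma 3.58.1 (R 4.3.3) with a mean-variance trend and no line term (the study's design formula is not given in the sources used here), at the study's thresholds, with Benjamini-Hochberg adjustment over all tested genes, two-sided. A fit with the line as a block is given where it changed the call of a gene named in the text. The pairing comes from the shared line in the labels, and deviations of same-line libraries from their group means correlated at 0.367 to 0.506 (mean 0.433 over 5 pairs, against -0.107 over 20 other pairs). With 5 lines, p-values describe the spread between these horses' cultures.

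The members, related lists and markers were chosen with earlier results of these data known. Every member is named. Of each related list, up to 3 differentially expressed genes with the smallest adjusted p are named. The values of 1 related gene are not reported here. Gene identifiers were matched to RefSeq (a newer thoroughbred assembly, names only) for 25083 of 29196 rows and 32 of 33 listed names. Promoter and protein sequences were not analysed here. Epithelial and hepatocyte marker lists summed to 539 to 1574 and 308 to 717 normalised counts with PF-06650833 alone and to 45.4 to 444 and 87.6 to 270.2 with IL-1β, and the tenocyte list to 892405 to 1478890 and 238974 to 997900. The epithelial sum was mostly CDH1, with EPCAM and KRT5 at 0 reads in all 10 libraries and KRT8 and KRT18 near the floor. The hepatocyte sum was ALB and the CYP7A1 row given above, with TTR and FGA at 0 reads in all 10. ALB differed by -0.71 (limma adjusted p = 0.226, and 0.0358 with the line as a block). On simulated data with 200 changed genes among 17992, the fit called 191 of them and 0 unchanged genes. The simulated effect sizes and spread are not given here, and in the real data 15.5% of genes passed the adjusted p. These simulated counts therefore say nothing about the calls of single members. Alternatives were other thresholds, filters, scales, pseudocounts, normalisations, variance models, the line block and leaving out libraries or lines.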

Additional observations from a re-analysis of the deposited data

Results flagged for a closer look

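In 4 of 62 groups of 5 libraries (31 members in 2 groups), 1 library lay far from the other 4 by Dixon's criterion, where chance alone flags about 1 in 20 groups, or 3.1 of 62. With IL-1β, TM7SF2 was high in line 3 (9.12, others 8.15 to 8.42) and NPC1 was high in the same library (11.24, others 10.53 to 10.68). HSD17B7 was low in line 4 with IL-1β (7.48, others 8.46 to 8.83), from an estimated 110 reads. SREBF1 was low in line 2 with PF-06650833 alone (9.50, others 9.90 to 9.98).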

How the results depend on the processing

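ABCA1 met both thresholds in all 13 settings without leave-outs and in the 15 leave-out fits. The number of differentially expressed members (1) became 2 with the replicate block, and 2 with the block under quantile normalisation, median centring or log2(normalised count + 1), combinations chosen after seeing the data, as was leaving out lines under the block. It was 2 with array weights and 1 to 3 when libraries or lines were left out. With no minimum fold change it was 6, or 8 with the block. The 10 related genes became 17, or 27 with the block. Over all genes the count of 1202 became 2782 with no minimum fold change, 3996 with the block as well, 719 at an adjusted p below 0.01, 1809 with the block on log2(normalised count + 1) and 762 to 1677 over leave-outs. Apart from ABCG1, MYLIP and the related genes given above, the block changed no member's side of the adjusted p threshold. STARD4 reached 0.0504 with all non-constant genes and EBP 0.0554 with the block and quantile normalisation.

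Members with differences near 0 changed sign in some leave-outs, none of them passing. Their ranges were -0.347 to 0.103 for DHCR7, -0.333 to 0.0205 for IDI1, -0.0576 to 0.211 for INSIG1, -0.178 to 0.256 for LSS, -0.286 to 0.0643 for MVK, -0.119 to 0.0388 for NSDHL and -0.0742 to 0.0488 for SCAP. Scaling moved the median of all genes by less than 0.1. CH25H, with the fewest reads, had the widest interval of any member. The cause of these changes was not tested.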
